A study of Mus musculus with 11 samples.

Results

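The genes of 3 epithelial alarmins and of their receptors were followed in the airway of mice with an asthma exacerbation and of control mice. The 8 genes were chosen by name from the 21899 mouse genes listed, with earlier results of these data known. They were the alarmins Il33, Tslp and Il25 and the chains specific to 1 of these 3, Il1rl1 (ST2), Crlf2 (TSLP receptor) and Il17rb (IL-25 receptor). They also included the partner chains Il1rap and Il7r, which serve other cytokines too. All 8 genes were found, and 7 of them reached the mean of 0.5 FPKM over all libraries that the test across genes required, with Il25 below it. FPKM is the number of fragments per kilobase of exon, scaled to the fragment total of the library, so that levels can be compared between genes.

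Alarmins are cytokines that barrier epithelium and stromal cells release or secrete when injured or stimulated by allergens and microbes. IL-33 is held in the nucleus and signals through ST2 with IL-1RAcP, the product of Il1rap, to MyD88 and NF-κB. TSLP signals through its own receptor chain with the IL-7 receptor alpha chain to JAK and STAT5, and IL-25, which tuft cells are known to make, signals through IL-17RB with IL-17RA to the adaptor Act1. Type 2 innate lymphoid cells, mast cells, dendritic cells and helper T cells carry these receptors. Except for the dendritic cells, they can answer with type 2 cytokines.

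Poly-A RNA was sequenced in 11 libraries. They comprise 4 labelled OVA/LPS/GGsTop, 4 labelled OVA/LPS/Vehicle and 3 labelled PBS. All mice were labelled WT, and the methods of the study name male BALB/c mice. PBS mice were not sensitised and received PBS only, whereas both other groups were sensitised by intraperitoneal ovalbumin (OVA) with alum, challenged with intranasal OVA and then given intranasal lipopolysaccharide (LPS). Of these, one group received GGsTop, an inhibitor of γ-glutamyl transferases, and the other received vehicle, both intratracheally. The effects of alum, OVA, LPS and the intratracheal treatment therefore cannot be told apart in a comparison with PBS. The vehicle libraries carry the numbers 12, 34, 56 and 78 and the GGsTop libraries 1 to 4, and whether such a number stands for pooled mice is not stated. Nothing in the labels says that the libraries came from separate mice, so that p-values measure the spread between these libraries, which may be technical.

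The labels name trachea, whereas the methods describe airway dissected free of lung parenchyma and trachea. Airway epithelial markers were high in every library, with Scgb1a1 and Bpifa1 leading a summed level of 30847 to 53821 FPKM over 8 genes, and alveolar type 2 markers, led by Sftpc and Sftpb, were high as well. The 6 alveolar markers summed to 9725 to 15504 FPKM in PBS, 4969 to 8336 FPKM in the vehicle group and 4463 to 11382 FPKM in the GGsTop group, and 3 of them fell in vehicle against PBS, 4 after GC correction. Markers of other tissues were present in libraries of every group. The 6 cartilage markers summed to 13.2 to 146 FPKM in PBS, 44.3 to 95.5 FPKM in the vehicle group and 20.3 to 248 FPKM in the GGsTop group. OVA/LPS/GGsTop 4 held the highest cartilage sum. Skeletal muscle markers summed to 0.323 to 44.5 FPKM in PBS, 34.2 to 93.4 FPKM in the vehicle group and 10.6 to 59.1 FPKM in the GGsTop group. Other such markers were highest in vehicle libraries. The 5 adipocyte markers, led by Ucp1 and Cidec, summed to 126 to 511 FPKM in all 4 vehicle libraries and to at most 125 FPKM in PBS and 112 FPKM in the GGsTop group. The part of such tissue in the differences below was not tested. The 5 thyroid and parathyroid markers, led by Tg and Pth, summed to 98.4, 264 and 534 FPKM in OVA/LPS/Vehicle 12, 34 and 56 and to at most 1.99 FPKM in each other library. Immature thymocyte markers, led by Cd8b1 and Dntt, summed to 46.5 FPKM in OVA/LPS/Vehicle 12 and to at most 6.37 FPKM elsewhere. Each library's deviations from the gene means over all libraries were set against GC content, so that the slopes are relative to these libraries. In log2 units per 10 percentage points, the slope was −0.26 to −0.19 in the vehicle libraries and 0.05 to 0.11 in the GGsTop libraries. It was 0.06 and 0.05 in PBS 1 and 2 and 0.53 in PBS 3, so that PBS 3 stood apart and the vehicle group lay below every other library. Implied library totals were 14513136 to 18632382 fragments. Each comparison below was therefore also made after GC correction, and calls and larger differences against PBS are also given without PBS 3.

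Il1rl1 lies at chr1:40429570-40465415 on the plus strand (GRCm38) and Crlf2 at chr5:109554709-109558993 on the minus strand. The promoters of these 2 genes are shown because they were the genes both called and free of overlap in a comparison with PBS. They are given as the 250 bases before each start in RefSeq (GRCm38.p6). RefSeq gives Il1rl1 a distal and a proximal start. Capitals mark GATAA, the core letters of GATA factor motifs, on either strand in Il1rl1, and, in Crlf2, a form of the NF-κB motif that reads GGGA, any 4 bases and CC.
Il1rl1 distal, chr1:40429320-40429569, plus strand: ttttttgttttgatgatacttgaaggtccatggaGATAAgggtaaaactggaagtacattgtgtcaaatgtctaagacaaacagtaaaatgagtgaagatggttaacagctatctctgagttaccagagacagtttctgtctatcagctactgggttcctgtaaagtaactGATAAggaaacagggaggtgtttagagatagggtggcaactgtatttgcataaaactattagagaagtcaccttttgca
Il1rl1 proximal, chr1:40439379-40439628, plus strand: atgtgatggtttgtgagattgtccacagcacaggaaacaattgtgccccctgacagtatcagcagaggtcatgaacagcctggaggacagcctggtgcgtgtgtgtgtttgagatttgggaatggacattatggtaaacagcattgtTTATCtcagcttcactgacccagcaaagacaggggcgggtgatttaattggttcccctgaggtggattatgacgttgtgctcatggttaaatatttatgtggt
Crlf2, chr5:109558994-109559243, minus strand: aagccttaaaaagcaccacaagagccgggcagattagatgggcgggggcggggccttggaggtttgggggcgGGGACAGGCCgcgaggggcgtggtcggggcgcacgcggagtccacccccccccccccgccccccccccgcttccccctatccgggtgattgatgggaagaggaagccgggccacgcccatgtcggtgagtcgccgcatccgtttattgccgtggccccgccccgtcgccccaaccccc
The distal Il1rl1 window held GATAA at 216 to 212 and at 79 to 75 bases before the start, and the proximal window held it on the other strand at 103 to 99 bases before the start. GATAA was present in 22.6% of the 32851 promoter windows of this length. The Crlf2 window held this NF-κB motif once, a match found in 17.6% of all windows, and its GC content was 71.6% against 37.6% and 46.4% in the distal and proximal Il1rl1 windows. A match is a description of letters, and gene-level values do not tell which Il1rl1 start was used, nor soluble from membrane-bound ST2.

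In PBS airway, Crlf2 and Il33 were the most abundant of the 8 genes, with means of 19.9 and 17.8 FPKM, and their libraries overlapped. Il7r followed at 3.76 FPKM, and Il1rap (1.68 FPKM), Tslp (1.57 FPKM) and Il1rl1 (1.01 FPKM) came next, with overlapping libraries between neighbours in this order. Il17rb was at 0.543 FPKM and Il25 at 0.0202 FPKM. In both OVA/LPS groups Il33 led and Crlf2 came second, without overlap between them within either group. In the vehicle group Tslp, Il1rap, Il1rl1 and Il17rb overlapped from neighbour to neighbour. In the GGsTop group the order of the means of Il1rl1 and Il1rap was the opposite of that in the 2 other groups, with Il1rl1 above Il1rap in all 4 libraries.

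**Figure D1:**
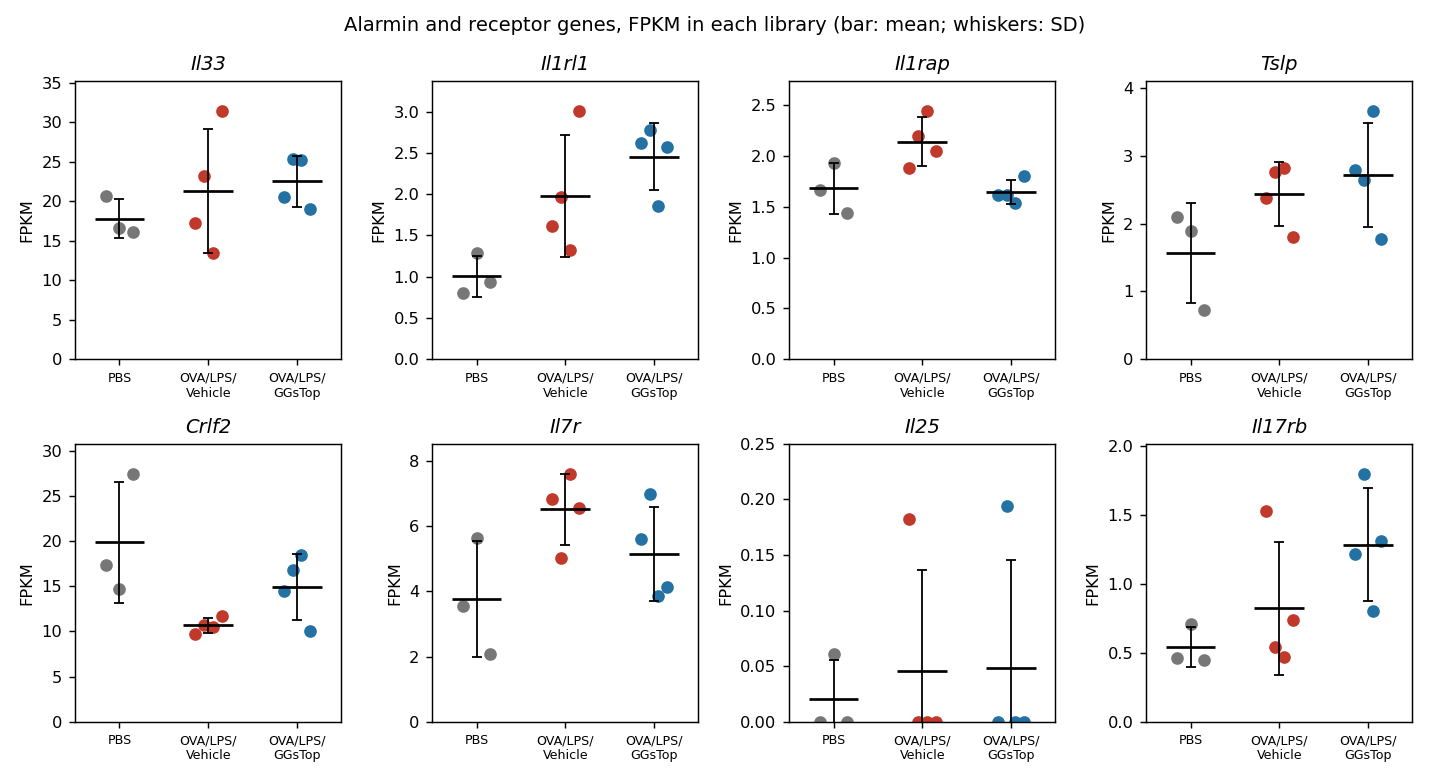
FPKM of each of the 8 genes (y axis, starting at 0 with its own scale per gene) in the 11 libraries, by group (x axis). Each point is 1 library, the bar is the mean and the whiskers are the SD. Every treated library lies above the PBS libraries for Il1rl1, every vehicle library lies below the PBS libraries for Crlf2, and Il25 is at 0 in 8 of 11 libraries.

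Among the alarmin genes, Il33 had the highest level in every library. Il33 (chr19:29925114-29960718) was at 20.7, 16.6 and 16.1 FPKM in PBS 1 to 3, at 17.2, 23.1, 13.5 and 31.4 FPKM in OVA/LPS/Vehicle 12, 34, 56 and 78, and at 20.5, 25.3, 25.2 and 19.0 FPKM in OVA/LPS/GGsTop 1 to 4. The vehicle group held both the highest and the lowest library, and its range covered all others. Its means were 17.8 ± 2.52 (SD, n = 3), 21.3 ± 7.84 (SD, n = 4) and 22.5 ± 3.26 FPKM (SD, n = 4), resting on 619 to 1516 fragments per library.

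Tslp (chr18:32815383-32819797) was a low transcript with 18 to 77 fragments per library. Its level was 2.09, 1.89 and 0.726 FPKM in PBS, 2.37, 2.76, 2.83 and 1.80 FPKM in the vehicle group and 2.79, 2.64, 3.67 and 1.78 FPKM in the GGsTop group. PBS 3 was the lowest library, and OVA/LPS/Vehicle 78 and OVA/LPS/GGsTop 4 lay among the PBS values. Il25 (chr14:54932695-54935837), the third alarmin, was listed at 0 in 8 of 11 libraries. The other 3 libraries were PBS 2 with 0.0606 FPKM from 1 fragment, OVA/LPS/Vehicle 12 with 0.182 FPKM from 3 fragments and OVA/LPS/GGsTop 2 with 0.194 FPKM from 3 fragments. A library with no fragment allows up to 3, which is 0.151 to 0.194 FPKM, so that Il25 was at or below this limit everywhere and no fold is given for it. Limits of this kind cover counting error only.

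Defining markers of tuft cells, the known source of IL-25, were low as well. Mean levels over all libraries were 0.333 FPKM for the channel gene Trpm5, 0.147 FPKM for the transcription factor gene Pou2f3 and 0.133 FPKM for Chat, the acetylcholine synthesis gene. Avil, which encodes an actin-binding protein, was at 1.46 FPKM, and none of these 4 genes was at 0 in all libraries.

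The specific receptor chains moved in different directions. Il1rl1, the chain that binds IL-33, was at 0.799, 1.28 and 0.934 FPKM in PBS, at 1.62, 1.96, 1.32 and 3.01 FPKM in the vehicle group and at 2.62, 2.78, 1.86 and 2.57 FPKM in the GGsTop group. All 8 treated libraries were above all 3 PBS libraries, though OVA/LPS/Vehicle 56 exceeded PBS 2 by little. Means were 1.01 ± 0.249 (SD, n = 3), 1.98 ± 0.738 (SD, n = 4) and 2.46 ± 0.409 FPKM (SD, n = 4). These values rested on 83 to 347 fragments per library.

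Crlf2, the chain specific to TSLP, was at 17.4, 14.8 and 27.5 FPKM in PBS, at 9.75, 10.7, 10.5 and 11.7 FPKM in the vehicle group and at 14.4, 16.8, 18.5 and 10.1 FPKM in the GGsTop group. The 4 vehicle libraries lay close together and below all PBS libraries, PBS 3 was the highest of all, and the GGsTop libraries spanned both. Means were 19.9 ± 6.72 (SD, n = 3), 10.7 ± 0.813 (SD, n = 4) and 15.0 ± 3.66 FPKM (SD, n = 4). With 65.6% GC, Crlf2 had the highest GC content of the 8 genes, and 6 of the 8 lay below the median of 49.9% of all genes tested.

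Il17rb (chr14:29996135-30008896), the chain that binds IL-25, was at 0.466, 0.713 and 0.449 FPKM in PBS, at 1.53, 0.546, 0.474 and 0.743 FPKM in the vehicle group and at 1.22, 1.80, 0.804 and 1.31 FPKM in the GGsTop group. Every GGsTop library was above every PBS library, whereas only OVA/LPS/Vehicle 12 and 78 were. Il17rb was therefore present while Il25 was at the limit of detection. Il17b, listed with the other ligands, was at most at 0.347 FPKM in any library.

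The chains shared with other cytokines followed no common pattern. Il1rap (chr16:26581704-26730117), the signalling partner of ST2 and of the IL-1 receptor, was at 1.67, 1.94 and 1.44 FPKM in PBS, at 1.89, 2.19, 2.45 and 2.05 FPKM in the vehicle group and at 1.61, 1.62, 1.53 and 1.81 FPKM in the GGsTop group. The GGsTop libraries all lay below the vehicle libraries and within the range of PBS. Il7r (chr15:9505788-9530176), which serves both TSLP and IL-7, was at 3.56, 5.63 and 2.08 FPKM in PBS, at 6.83, 5.03, 7.61 and 6.57 FPKM in the vehicle group and at 5.61, 6.99, 3.85 and 4.14 FPKM in the GGsTop group. PBS 2 exceeded OVA/LPS/Vehicle 34, and the GGsTop group overlapped both other groups.

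The comparison of OVA/LPS/Vehicle with PBS asked how allergen and LPS together changed the axis. Il1rl1 and Il7r were higher and Crlf2 was lower after OVA/LPS, and the other 4 genes tested did not pass the threshold. Crlf2 fell by 0.80 on the log2 scale (SE 0.22, 95% CI −1.27 to −0.32, Benjamini-Hochberg adjusted p in limma = 0.0163), Il1rl1 rose by 0.55 (SE 0.18, 95% CI 0.15 to 0.95, adjusted p in limma = 0.0351) and Il7r rose by 0.72 (SE 0.25, 95% CI 0.17 to 1.26, adjusted p in limma = 0.0409). These values are differences in log2(FPKM + 1), which understates the change of low genes such as Il1rl1. Thus 3 of 7 genes were called, at a background of 38.0% of all 14004 genes tested (15.9% higher and 22.1% lower). A count of 3 in 7 is near this background and is not particular to these genes. Libraries did not overlap for Il1rl1 and Crlf2, against 18.7% of all genes that lay wholly higher and 25.4% wholly lower.

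Differences of the genes that were not called were 0.19 for Il33 (95% CI −0.32 to 0.70, adjusted p in limma = 0.529), 0.46 for Tslp (95% CI −0.03 to 0.94, adjusted p in limma = 0.123), 0.21 for Il17rb (95% CI −0.23 to 0.65, adjusted p in limma = 0.409) and 0.23 for Il1rap (95% CI −0.0018 to 0.46, adjusted p in limma = 0.103). On this scale, which shrinks low genes more, the intervals of Il33, Tslp and Il17rb include 0.55, the size of the Il1rl1 difference. With 0.1 added to FPKM in place of 1, Il1rl1 was at 0.87. That size lay outside the Il33 interval (95% CI −0.34 to 0.73) and inside that of Tslp (95% CI −0.04 to 1.45). Without PBS 3 the Tslp difference was 0.19 (95% CI −0.25 to 0.63, adjusted p in limma = 0.504). The median over the 7 genes was 0.23, beside −0.01 over all genes tested. With GC correction these medians were −0.05 and −0.07. For Il25 the difference in mean log2(FPKM + 1) was 0.03 (two-sided exact permutation test, p = 1), where the smallest p that 3 against 4 libraries allow is 0.0571.

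All 3 calls were lost after GC correction, and all 3 were lost without PBS 3. GC content and the OVA/LPS difference had a Spearman correlation of −0.593 across 13987 genes, which are not independent replicates and share their libraries. After GC correction Crlf2 was at −0.50 (adjusted p in limma = 0.0788), Il1rl1 at 0.20 (adjusted p in limma = 0.452) and Il7r at 0.22 (adjusted p in limma = 0.402), so that no member was called, at a background of 20.8%. At an unadjusted p under 0.05 it was 1 of 7, beside 39.1% of all genes. Il33, Tslp and Il1rap turned to −0.21, −0.05 and −0.19 after this correction, none of them called. Leaving out PBS 3 ended all 3 calls also without GC correction. Without it Crlf2 was at −0.55 (adjusted p in limma = 0.0690), Il1rl1 at 0.52 (adjusted p in limma = 0.101) and Il7r at 0.44 (adjusted p in limma = 0.188).

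**Figure D2:**
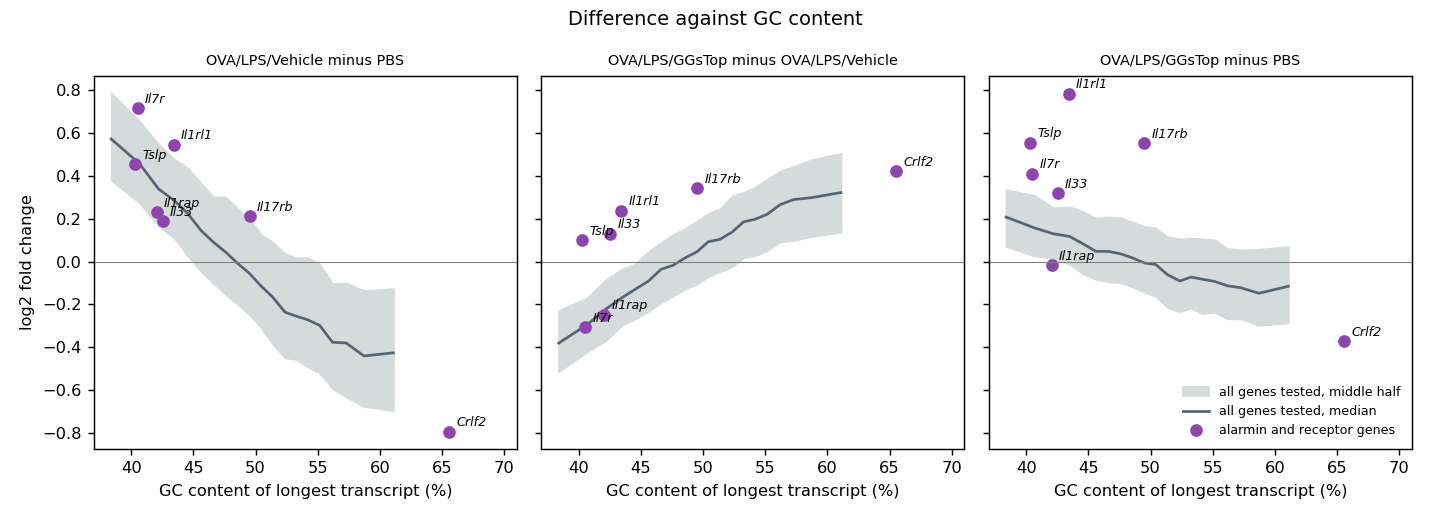
Log2 fold change (y axis) against the GC content of the longest transcript in percent (x axis) for the 7 genes tested (labelled points), one panel per comparison. The line is the median over 20 bins of all genes tested and the band holds the central 50% of each bin. In the first panel, OVA/LPS/Vehicle minus PBS, the line descends from 0.57 at 38.4% GC to −0.43 at 61.1% GC, with Crlf2 at the right end and Il7r and Tslp at the left end.

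Other libraries mattered for Il1rl1 and Il7r as well. The Il1rl1 call was kept in 7 of the 11 fits that left out 1 library and was lost without PBS 1 (0.47, adjusted p in limma = 0.104), PBS 3, OVA/LPS/Vehicle 34 (0.54, adjusted p in limma = 0.0699) or OVA/LPS/Vehicle 78 (0.39, adjusted p in limma = 0.0782). The Il7r call was kept in 5 of 11 fits, with adjusted p in limma between 0.00653 and 0.188, and was lost without PBS 1, PBS 3, OVA/LPS/Vehicle 12, 56 or 78 or OVA/LPS/GGsTop 1. The Crlf2 call was kept in 10 of 11. The direction stayed the same for these 3 genes in all of these fits.

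The cells known to carry these receptors were set beside the calls. In bulk tissue fewer cells of a type and less RNA per cell cannot be told apart. The 7 mast cell markers, led by Kit and Hdc, summed to 56.7 to 67.5 FPKM in PBS, 43.0 to 51.5 FPKM in the vehicle group and 39.8 to 47.3 FPKM in the GGsTop group. Kit, which fell in vehicle against PBS, set this order, since the other 6 markers summed to 21.1 to 29.0 FPKM in PBS, 24.4 to 31.7 FPKM in the vehicle group and 19.2 to 27.4 FPKM in the GGsTop group. Of the 6 mast cell markers tested, Ms4a2 rose in the same comparison. After GC correction the Kit call was kept and that of Ms4a2 was lost. Another of them, Cpa3, had means of 6.34, 6.87 and 3.75 FPKM in PBS, vehicle and GGsTop. It fell in GGsTop against vehicle, though not after GC correction, and in GGsTop against PBS only after GC correction. The 7 T cell markers measured, led by Lck and Cd4, summed to 17.5 to 36.4 FPKM in PBS and to 13.7 to 30.7 FPKM in 3 of the vehicle libraries, with 75.1 FPKM in OVA/LPS/Vehicle 12, the library with thymocyte markers. Without OVA/LPS/Vehicle 12 the Il7r difference was 0.69 (adjusted p in limma = 0.0769). For the 6 dendritic cell markers the sums overlapped, at 38.3 to 46.5 FPKM in PBS, 29.6 to 45.4 FPKM in the vehicle group and 31.0 to 46.3 FPKM in the GGsTop group. One of them, Ccr7, which guides dendritic cells to lymph nodes, fell against PBS in both OVA/LPS groups, also after GC correction, with means of 16.4, 6.91 and 5.46 FPKM in PBS, vehicle and GGsTop. What part such cells had in the values of Il1rl1, Il7r and Crlf2 was not tested.

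The comparison of OVA/LPS/GGsTop with OVA/LPS/Vehicle asked what inhibition of γ-glutamyl transferases changed. None of the 7 genes passed the threshold in limma, at a background of 8.71% of all genes tested, and none did with voom on the recovered fragments. At an unadjusted p under 0.05 it was 1 of 7, beside 30.8% of all genes. That gene was Il1rap, with a difference of −0.25 (95% CI −0.46 to −0.03, adjusted p in limma = 0.118). Its GGsTop libraries lay wholly below the vehicle libraries, which 12.4% of all genes did. After GC correction the Il1rap difference was 0.01 (95% CI −0.20 to 0.23).

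Among the alarmins, Il33 differed by 0.13 (95% CI −0.34 to 0.60, adjusted p in limma = 0.711) and Tslp by 0.10 (95% CI −0.35 to 0.55, adjusted p in limma = 0.774) between GGsTop and vehicle. Differences of the specific receptors were 0.24 for Il1rl1 (95% CI −0.13 to 0.61, adjusted p in limma = 0.353), 0.42 for Crlf2 (95% CI −0.02 to 0.86, adjusted p in limma = 0.176) and 0.34 for Il17rb (95% CI −0.06 to 0.75, adjusted p in limma = 0.226). Il7r differed by −0.31 (95% CI −0.81 to 0.20, adjusted p in limma = 0.379). The Il25 difference was 0.0038 (two-sided exact permutation test, p = 1), where 4 against 4 libraries allow a p of 0.0286 at the lowest. The median of the 7 genes was 0.13, beside 0.03 over all genes tested. With GC correction these medians were 0.31 and 0.02.

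GC correction moved this comparison the other way for genes of low GC content. Across genes the Spearman correlation of GC content with the difference was 0.624. After correction Tslp was at 0.42 (95% CI 0.08 to 0.76, adjusted p in limma = 0.170), Il1rl1 at 0.45 (95% CI 0.06 to 0.83, adjusted p in limma = 0.186) and Il33 at 0.37 (95% CI −0.12 to 0.87, adjusted p in limma = 0.360). Crlf2, rich in GC, was at 0.16 (95% CI −0.22 to 0.55, adjusted p in limma = 0.626). No member was called after correction, at a background of 0.400%. At an unadjusted p under 0.05 it was 2 of 7, beside 20.8% of all genes.

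**Figure D3:**
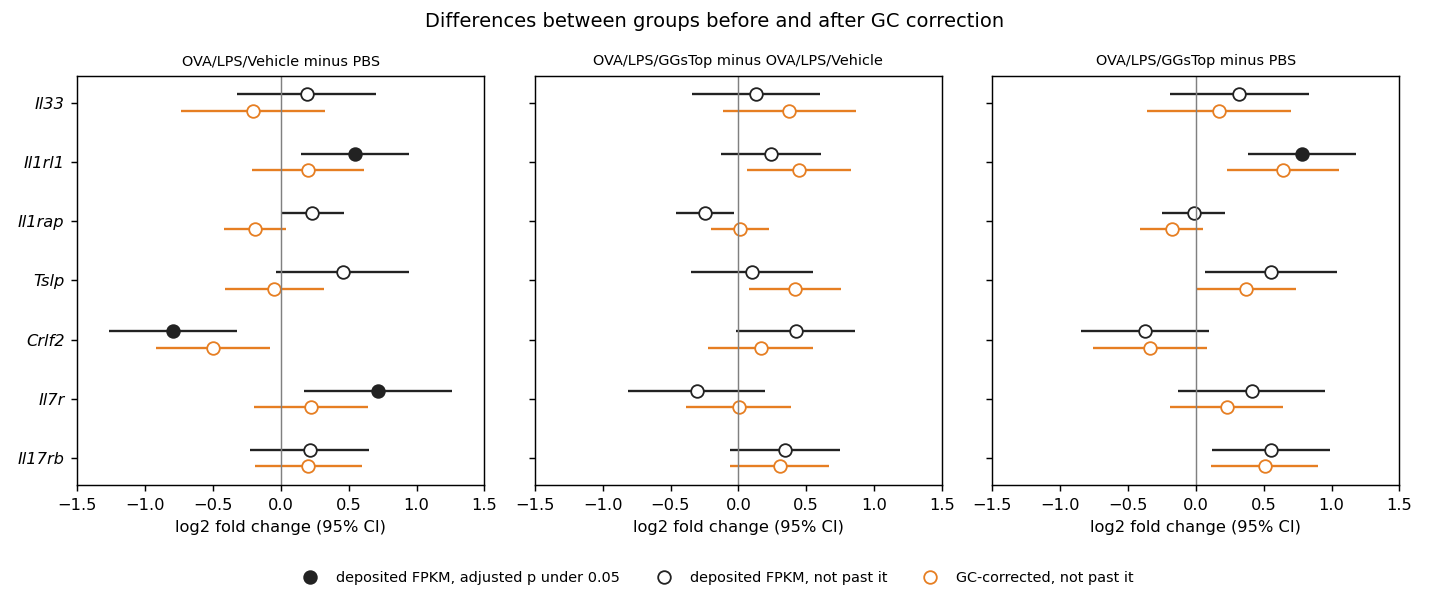
Log2 fold change with its 95% confidence interval (x axis) of the 7 genes tested (y axis) in the 3 comparisons, from deposited FPKM (black) and after GC correction (orange). Filled points have an adjusted p under 0.05 in limma, which holds for Il1rl1, Crlf2 and Il7r in the first panel and Il1rl1 in the third, and for no GC-corrected value.

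The comparison of OVA/LPS/GGsTop with PBS shares its libraries with both comparisons above. Il1rl1 rose by 0.78 (SE 0.18, 95% CI 0.39 to 1.18, adjusted p in limma = 0.0453), and it was the 1 gene of 7 that was called, at a background of 2.88% in either direction and 2.06% higher. Libraries did not overlap for Il1rl1 and Il17rb, both higher in the GGsTop group, which 7.22% of all genes were. The Il17rb difference was 0.55 (95% CI 0.12 to 0.99, adjusted p in limma = 0.154) and that of Tslp was 0.55 (95% CI 0.07 to 1.04, adjusted p in limma = 0.193). Without PBS 3 they were 0.51 (95% CI −0.01 to 1.03, adjusted p in limma = 0.343) and 0.29 (95% CI −0.15 to 0.73, adjusted p in limma = 0.522). Differences of Il33, Crlf2, Il1rap and Il7r were 0.32, −0.37, −0.02 and 0.41, with adjusted p in limma from 0.350 to 0.940, and the Il25 difference was 0.04 (two-sided exact permutation test, p = 1). Without PBS 3 Crlf2 was at −0.13 and Il7r at 0.13, without OVA/LPS/GGsTop 4 Crlf2 was at −0.21, and without PBS 2 Il7r was at 0.68 (adjusted p in limma = 0.0779).

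The Il1rl1 call against PBS lay close to the threshold. After GC correction the difference was 0.64 (95% CI 0.23 to 1.06, adjusted p in limma = 0.0775), and no member was called, at a background of 4.25%. At an unadjusted p under 0.05 it was 3 of 7, beside 22.8% of all genes. On the 6 libraries numbered 1 to 3, with the number as a block, the difference was 0.77 (SE 0.15, adjusted p in limma = 0.0727), and without the block it was 0.77 on the same libraries (SE 0.17, adjusted p in limma = 0.168). With block and GC correction it was 0.63 (adjusted p in limma = 0.123). The call was kept in 3 of the 11 fits that left out 1 library, those without PBS 2 (0.88, adjusted p in limma = 0.0226), OVA/LPS/GGsTop 3 (0.87, adjusted p in limma = 0.0254) or OVA/LPS/Vehicle 78 (0.78, adjusted p in limma = 0.0312). Without PBS 1 it was at 0.71 (adjusted p in limma = 0.152) and without PBS 3 at 0.76 (adjusted p in limma = 0.139), and in the 6 other fits the adjusted p in limma was 0.0501 to 0.111. Over all alternatives the adjusted p in limma ran from 0.0226 to 0.168 for this difference. In the comparison of vehicle with PBS it ran from 0.00516 to 0.277 for Crlf2, from 0.0251 to 0.452 for Il1rl1 and from 0.00653 to 0.708 for Il7r.

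**Figure D4:**
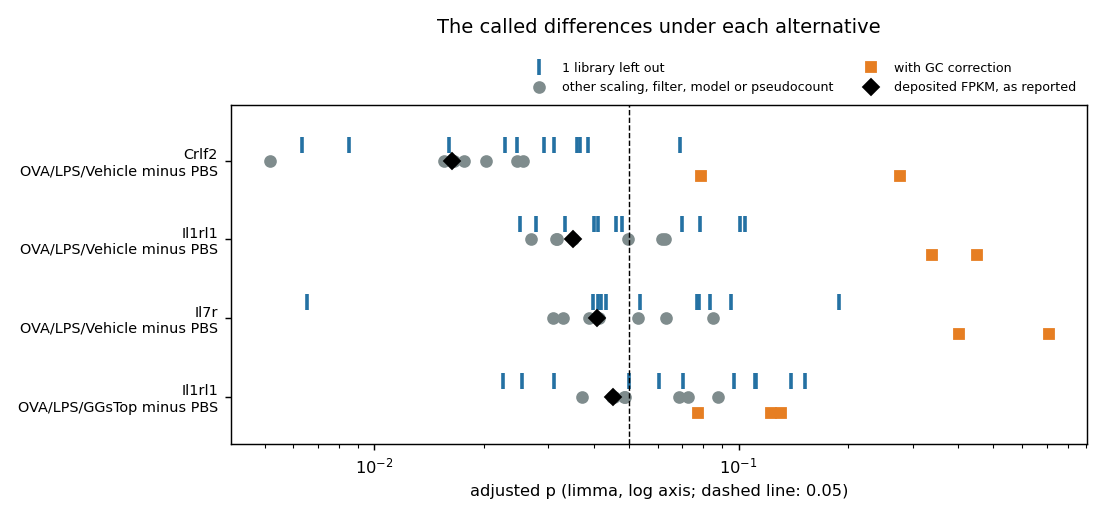
Adjusted p in limma (x axis, log scale) of the 4 called differences (y axis) as reported from deposited FPKM (diamonds), with 1 library left out (blue bars), under another scaling, filter, model or pseudocount (circles) and with GC correction (squares). The dashed line is the threshold of 0.05. All squares lie to its right, and for Crlf2 every blue bar but 1 lies to its left.

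Ratios within a library compare 2 genes of similar GC content and do not depend on the scaling of that library. They were chosen after the values were seen and are given as a description. The Il33 to Il1rl1 ratio, 2 genes with 42.5% and 43.4% GC, was 25.9, 13.0 and 17.2 in PBS, 10.6, 11.8, 10.2 and 10.4 in the vehicle group and 7.82, 9.12, 13.6 and 7.39 in the GGsTop group. Vehicle libraries were all below PBS, and OVA/LPS/GGsTop 3 reached into the PBS range. The Il1rl1 to Il1rap ratio, with 42.1% GC for Il1rap, was 0.480, 0.662 and 0.648 in PBS, 0.859, 0.895, 0.539 and 1.47 in the vehicle group and 1.62, 1.72, 1.21 and 1.42 in the GGsTop group. GGsTop libraries lay wholly above PBS, and the vehicle libraries overlapped both. The Tslp to Il7r ratio, 40.3% and 40.5% GC, overlapped between all groups, with 0.336 to 0.589 in PBS, 0.274 to 0.548 in the vehicle group and 0.378 to 0.953 in the GGsTop group.

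**Figure D5:**
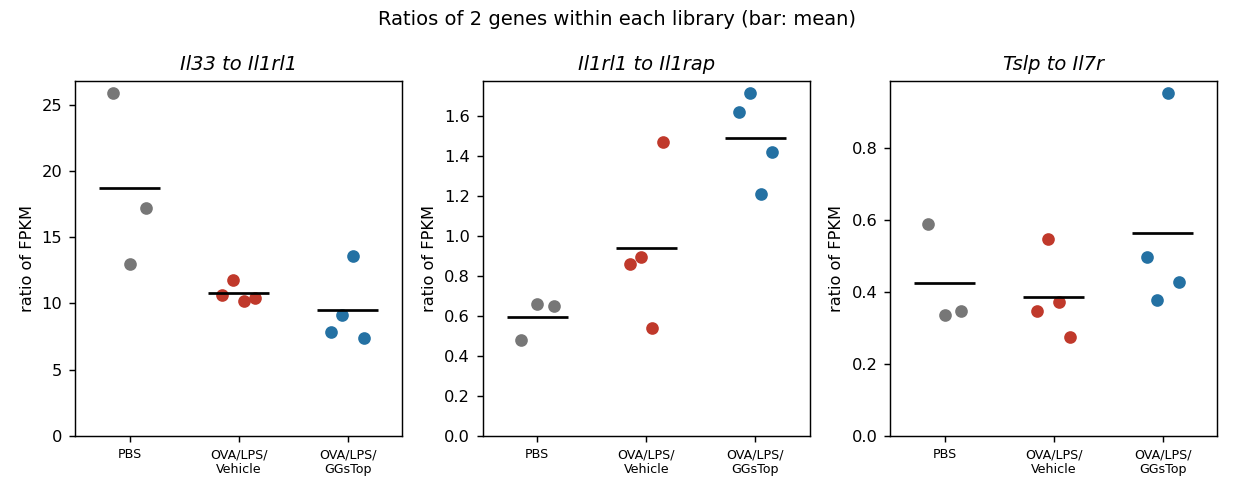
Ratio of the FPKM of 2 genes within each library (y axis, from 0) for Il33 to Il1rl1, Il1rl1 to Il1rap and Tslp to Il7r, in the 3 groups (x axis). Points are libraries and bars are means. The Il1rl1 to Il1rap ratio is 0.480 to 0.662 in PBS and 1.21 to 1.72 in the GGsTop group.

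Other genes of the pathway were taken as 4 lists of 59 genes in all, 51 of them tested. Of 18 genes of receptor signalling, 1 rose and 9 fell in the comparison of vehicle with PBS, with a median of −0.34 beside −0.01 over all genes tested. Of all genes tested 15.9% rose and 22.1% fell. The 9 that fell included Rela (−0.83, adjusted p in limma = 0.00366), a subunit of NF-κB, Traf3ip2 (−0.72, adjusted p in limma = 0.00366), which encodes Act1, the adaptor of the IL-25 receptor, and Myd88 (−0.54, adjusted p in limma = 0.00449), the adaptor of ST2. Chuk, an IκB kinase, rose by 0.51 (adjusted p in limma = 0.0279). After GC correction 7 of 18 fell. Of all 13987 genes 1803 fell, and 20.8% were called in either direction. Traf3ip2 was then at −0.64 (adjusted p in limma = 0.00894), Myd88 at −0.37 (adjusted p in limma = 0.0280), Rela at −0.46 (adjusted p in limma = 0.0288) and Chuk at 0.05 (adjusted p in limma = 0.705). Without PBS 3 and with no GC correction Rela was at −0.70, Traf3ip2 at −0.77, Myd88 at −0.48 and Chuk at 0.28, of which Chuk was no longer called (adjusted p in limma = 0.0646). With GC correction and PBS 3 left out, Traf3ip2 was the 1 of the 51 pathway genes still called (−0.70, adjusted p in limma = 0.0364).

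Of 15 genes of type 2 output tested, 2 rose after OVA/LPS, a share near the 15.9% of all genes that did. Ccl11, the eotaxin that attracts eosinophils, had a mean of 2.80 ± 2.23 FPKM in PBS (SD, n = 3) and 15.3 ± 5.35 FPKM in the vehicle group (SD, n = 4), a difference of 2.20 (adjusted p in limma = 0.00451) that was 1.79 after GC correction (adjusted p in limma = 0.0124). Its libraries did not overlap, with 5.25 FPKM as the highest of PBS and 8.46 FPKM as the lowest of the vehicle group. Il4 rose by 0.76 (adjusted p in limma = 0.0321), and after GC correction it was at 0.36 (adjusted p in limma = 0.164). Without PBS 3 Ccl11 was at 1.78 (adjusted p in limma = 0.0159) and Il4 at 0.41 (adjusted p in limma = 0.110). Il5, Il9 and Il13, cytokine genes of type 2 lymphoid cells, were at most at 0.117, 0.126 and 0.316 FPKM in any library.

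Of 11 receptor partners, other ligands and decoys tested, Sigirr, an inhibitory member of the IL-1 receptor family, fell by 0.53 (adjusted p in limma = 0.0178) and was at −0.20 after GC correction (adjusted p in limma = 0.231) and at −0.35 without PBS 3 (adjusted p in limma = 0.0530). Il7, a ligand of Il7r, was at 0.12 (adjusted p in limma = 0.525) and fell by 0.44 only after GC correction (adjusted p in limma = 0.0241). Of 7 proteases known to cleave IL-33 that were tested, Ctss, a lysosomal cysteine protease, rose by 0.80 (adjusted p in limma = 0.0409) and was at 0.61 after GC correction (adjusted p in limma = 0.139) and at 0.83 without PBS 3 (adjusted p in limma = 0.0972). Between GGsTop and vehicle, Irak2, a kinase downstream of MyD88, rose by 0.30 (adjusted p in limma = 0.0456) and was the 1 gene called of the 51, with 0.17 after GC correction (adjusted p in limma = 0.258). Between GGsTop and PBS, Ccl11 rose by 2.23 (adjusted p in limma = 0.020) and was again the 1 gene called, with 2.07 after GC correction (adjusted p in limma = 0.0140) and 1.81 without PBS 3 (adjusted p in limma = 0.0893). Jak1, of the receptor signalling list, was called only after GC correction (−0.31, adjusted p in limma = 0.0438). With GC correction and PBS 3 left out, Ccl17 was called (1.22, adjusted p in limma = 0.0411) and Ccl11 was not (1.82, adjusted p in limma = 0.0806). Of all genes tested, 15.9% rose and 22.1% fell in vehicle against PBS. The share of all genes called was 8.71% between GGsTop and vehicle and 2.88% between GGsTop and PBS.

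The genes whose pattern of log2(FPKM + 1) over the 11 libraries was most like that of each member are given as a description, by Pearson correlation, since libraries share their group and GC slope. Il1rl1 was most like Ccdc74a (0.969), Tent5c (0.954) and Derl3 (0.923), and Il33 was most like Mrc1 (0.878), Pstpip2 (0.853) and Atp6v0d2 (0.833). Il17rb was nearest to Irf4 (0.912), Sirt3 (0.908) and Sla (0.888), and Tslp to Mtmr6 (0.941), Txlng (0.933) and Khdc4 (0.930). Il1rap was nearest to Hspb11 (0.951), Svbp (0.946) and Ebag9 (0.940), and Il7r to Bmp2k (0.955), BC004004 (0.944) and Rps6ka5 (0.941). Crlf2 was nearest to Trib3 (0.984), Rassf1 (0.981) and Sema4f (0.980), and 425 genes had a correlation of at least 0.9 with it, against 0 for Il33 and 2 to 44 for the 5 other members.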

How the data were processed

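Poly-A RNA of 11 airway libraries was sequenced, and the authors deposited 1 table of FPKM per gene and library. The submitters' processing notes name cutadapt 1.15, HISAT2 2.0.5, HTSeq 0.9.1 and mm39, with no roles given. Whether strand was used in counting is not given in the sources used here. GENCODE M21 (GRCm38) supplied symbols, positions and exon lengths, since with its exon lengths the values of 97.8% of genes were whole fragments in every library (tolerance 0.02 fragments), which gave the library totals. The 14004 genes whose mean reached 0.5 FPKM entered 1 limma fit of log2(FPKM + 1) over all 11 libraries, without covariates and allowing the variance to follow the mean (limma 3.58.1, R 4.3.3). The p-values were two-sided, adjusted by Benjamini-Hochberg over all genes tested and called under 0.05. Il25 was compared by exact permutation tests.

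GC correction subtracted from each library a natural spline (5 degrees of freedom) of its deviations on GC content. The fit was also run on simulated data, for GGsTop against vehicle only. The simulated calls held no GC slope and no library like PBS 3, so they do not bear on the calls against PBS. Alternatives were another pseudocount, filter, scaling or model, GC correction, each library left out and a replicate block. PBS and OVA/LPS/GGsTop share the numbers 1 to 3, and deviations of same-numbered libraries had correlations of 0.158, 0.624 and 0.401. The reported fit did not pair libraries by number, and the number entered as a block only in alternatives. No source says what the numbers mark, and PBS 1 was closer to OVA/LPS/GGsTop 3 (0.419). The members, gene lists and tests were chosen with earlier results of these data known. Named were all members, up to 3 called genes per pathway list and direction by smallest p, the 3 genes most like each member, and the 2 highest genes of a cell list. Promoters came from RefSeq, matched by symbol for 6 members and searched on both strands for GATAA (GATA factors), for TGANTCA (AP-1), for CACGTG (E-box), and for 2 spaced motifs, TTC, any 3 bases and GAA (STAT) and GGGA, any 4 bases and CC (NF-κB), overlaps allowed. Tslp and Il25 promoters were not used here. The summed level of the tuft cell list is not reported here.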

Additional observations from a re-analysis of the deposited data

Results flagged for a closer look

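In both OVA/LPS groups Il25 was above 0 in 1 library of 4. In the vehicle group, library 12 had 0.182 FPKM and the other 3 were listed at 0. In the GGsTop group, library 2 had 0.194 FPKM and the other 3 were listed at 0. Each of these values rests on 3 fragments, the number that a library with no fragment still allows, so that the libraries cannot be told apart at this depth. The same criterion, the gap to the nearest library as a share of the group's range, was applied to 16 sets of 4 libraries, and chance flags about 1 in 20 such sets in general. That rate does not hold here, since with 3 libraries at 0 any value above 0 meets the criterion.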

How the results depend on the processing

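Recomputing the 21 differences of the 7 genes under the alternatives gave 431 results. Of these, 380 kept direction and side of the threshold, 36 kept the direction of a called difference that was then no longer called, and 15 turned the direction of a difference that was not called. No called difference turned. The cause was not tested.

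In vehicle against PBS, 3 members were called as reported, 1 with all libraries at the same FPKM total, 1 with only the 2 groups compared (Crlf2 in both), 0 after GC correction with or without PBS 3, and 0 to 3 with 1 library left out, 0 being without PBS 3. Il33 turned to −0.21 after GC correction, to −0.11 when PBS 3 was also left out, and ranged from −0.0119 (without OVA/LPS/Vehicle 78) to 0.38 with 1 library left out. In the same 2 GC settings Tslp was at −0.0480 and −0.11, and Il1rap at −0.19 and −0.0878. In GGsTop against vehicle, 0 members were called in every fit that left out 1 library, GC correction with or without PBS 3 turned Il1rap to 0.0135 and Il7r to 0.0043, and with 1 library left out Il33 ranged from −0.0561 to 0.33 and Tslp from −0.0176 to 0.23. In GGsTop against PBS, 1 member was called as reported, and 0 were with no filter, with only the 2 groups compared and after GC correction with or without PBS 3. With 1 library left out it was 0 to 1, and Il1rap ranged from −0.0826 to 0.0507. The Il25 difference ranged with 1 library left out from −0.0283 to 0.0603 (vehicle against PBS), −0.0603 to 0.0640 (GGsTop against vehicle) and −0.0283 to 0.0640 (GGsTop against PBS).

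With the replicate block in GGsTop against PBS 0 members were called, also with the replicate block and GC correction together. These fits held only the 6 libraries numbered 1 to 3, and on them the Il1rl1 call was lost without the block too (adjusted p in limma = 0.168, against 0.0727 with it). On these libraries the block changed no call of a member.

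Of the 51 other pathway genes tested, 14 were called in vehicle against PBS, beside 38.0% of all genes. It was 9 after GC correction (20.8% of all genes) and 1 when PBS 3 was also left out (152 higher and 156 lower of 13987). With 1 library left out it was 7 to 19, 7 being without PBS 3. In GGsTop against vehicle it was 1 (8.71% of all genes), with 0 at equal medians, 6 at equal totals and 0 after GC correction (0.400%). With only the 2 groups compared it was 7 (2119 higher and 1406 lower of 14004), and with 1 library left out it was 0 to 9. In GGsTop against PBS it was 1 (2.88% of all genes), with 2 after GC correction (4.25%), 0 with only the 2 groups compared and 0 to 5 with 1 library left out.

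Equal FPKM totals moved the median of all genes from −0.01 to −0.15 in vehicle against PBS. The split of all genes called higher and lower was 2231 and 3096 as reported there and 1232 and 4570 at equal totals. In GGsTop against vehicle it was 966 and 254 as reported, 344 and 354 at equal medians, 2026 and 155 at equal totals and 34 and 22 after GC correction. In GGsTop against PBS it was 288 and 115 as reported and 250 and 243 at equal totals. Fragment counts of 18 to 77 for Tslp and 26 to 97 for Il17rb limit the precision of these 2 genes.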
